A study of Mus musculus with 9 samples.

Results

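The untreated state of MC3T3-E1 cells was described from the 3 arrays of mock-treated control cells, chosen by their titles, out of 9 arrays in the series. The line was cloned from the calvaria, the skull vault, of newborn C57BL/6 mice, and its cells are preosteoblasts, which precede the osteoblasts that form bone. The series asked how low-intensity pulsed ultrasound alters transcript levels in these cells, and its other 6 arrays hold treated cells, which were not used here. Cells of all groups had grown for 14 days in MEMα with 10% fetal bovine serum, with β-glycerophosphate at 10 mM and ascorbic acid at 0.3 mM. They were then lifted with trypsin, seeded again and kept for 24 h before the mock treatment. Ascorbic acid allows collagen to be hydroxylated and secreted, and β-glycerophosphate supplies phosphate for mineral, so this is a medium used to let osteoblasts mature. How long the control cells were cultured after the mock treatment is not given in the sources used here. The line is 1 clone, and the 3 arrays are numbered as separate control samples, so the spread between them measures these samples and not animals.

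Osteoblasts arise from mesenchymal progenitors under transcription factors such as Sp7 and Dlx5, and lay down an osteoid of type I collagen that is later mineralised. An early preosteoblast divides and makes collagen and proteoglycans. A mature osteoblast adds alkaline phosphatase and phosphoproteins that bind mineral, and an osteocyte, a cell enclosed in bone, adds the hormone-like factors Sost and Fgf23. The cells take cues from BMP, TGF-β, Wnt, PDGF and FGF receptors, from parathyroid hormone and vitamin D, and from mechanical load.

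Each array gave the log2 signal of 45101 probe sets, short groups of probes for 1 transcript, and 64 of them were controls that were left out. Signals were assigned to 18193 genes, with the probe set of the highest mean standing for a gene that had several. Probe sets bind their targets with unequal strength, so a level is given as a signal, a rank or a percentile among these genes, and no fold is drawn between genes. Genes were placed in 3 bands. A gene was called high when its mean lay in the top 10% of genes, above a log2 signal of 10.22. It was called near the floor when its mean was at or below 5.09, the 95th percentile of 71 genes for olfactory, vomeronasal and trace amine receptors, which serve smell. The remaining genes formed the middle band. Of the 71 receptor genes 65 had 1 probe set, whereas 9010 of all genes had 2 or more and were represented by the highest. By these limits 10% of genes were high (1820), 52.1% were in the middle (9473) and 37.9% were near the floor (6900). The share in the high band was set by the rule. Near the floor means a signal like that of smell receptors on this array and does not show that a transcript was missing. The ribosomal protein gene *Rps16*, which growing cells use throughout, had only 1 probe set with a single gene name, and its mean was 3.13 ± 0.15 (SD, n = 3).

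**Figure D1:**
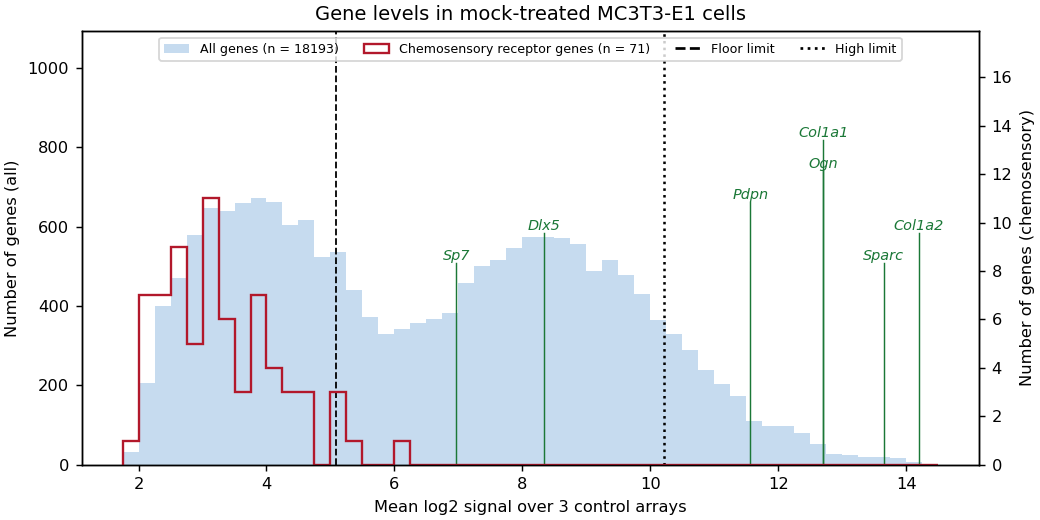
Number of genes (left axis, blue bars) by mean log2 signal over the 3 control arrays in steps of 0.25, with the 71 smell receptor genes as a red outline (right axis). The dashed line is the floor limit at 5.09, the dotted line the high limit at 10.22, and green lines place the 7 bone markers, of which 5 lie above the high limit and *Sp7* and *Dlx5* between the limits.

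The levels of all genes formed a lower and an upper hump. Counted in steps of 0.25, the lower one was fullest from a log2 signal of 3.75 to 4, with 671 genes, and the upper one from 8 to 8.25, with 574 genes. The fewest genes between them, 329, lay from 5.75 to 6, above the floor limit. Genes from 5.09 to about 6 are therefore named here as low in the middle band.

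The 3 arrays did not carry the same scale. Median signals over probe sets ran from 4.89 to 5.15, and array 3 had the narrowest spread of values, an SD of 2.52 against 2.71 and 2.68 on arrays 1 and 2. Arrays 1 and 2 correlated at 0.994 over probe sets, and array 3 correlated with them at 0.985 and 0.987, where probe sets are not independent replicates. Among the 1820 high genes array 2 gave the highest of the 3 values for 1734 and array 3 the lowest for 1671. Among low genes the order changed. Of 10 equal bins of genes by level, bin 3 from the bottom had median deviations from the gene means of -0.22 on array 1 and 0.16 on array 3. Much of the spread given with each mean below was thus shared by many genes at once. The median SD of a high gene was 0.21 as deposited and 0.09 after the 3 arrays were brought to the same distribution. Bands depended less on this than single values did, and 17927 genes (98.5%) kept their band when array 3 was left out.

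The 7 bone markers used here were chosen with earlier results of these data known. Other bone genes, among them *Ibsp*, *Mepe* and *Phex*, were near the floor. All 7 markers lay outside the floor band on each array, and *Col1a1*, *Col1a2*, *Sparc*, *Ogn* and *Pdpn* were high. *Col1a2*, a chain of type I collagen, read 14.28, 14.29 and 14.02 on arrays 1, 2 and 3 and ranked 2 of all genes. *Sparc*, an osteoid protein that binds collagen and calcium, read 13.72, 13.73 and 13.49. Both were lowest on array 3 and close on the other arrays. *Col1a1*, the other type I collagen chain, read 12.83, 12.84 and 12.43 and ranked 123. *Ogn*, a small proteoglycan of bone matrix also called mimecan, read 12.83, 12.94 and 12.33. *Pdpn*, a membrane glycoprotein of early osteocytes also known as E11, read 11.50, 11.68 and 11.52. These genes stood in the top 3% of genes. The transcription factors were lower. *Dlx5*, a homeobox factor of early osteoblasts, had a mean of 8.34 ± 0.33, at percentile 69.4. *Sp7*, or osterix, which osteoblast formation requires, read 6.73, 7.28 and 6.89 at percentile 53.7, close to the median gene. All 7 markers kept their band in all 13 other settings tried. Other probe sets of a marker could read lower, and the lowest of the 3 for *Sparc* had a mean of 5.81.

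Of the 7 markers 4 matched the RefSeq promoter table for mouse build GRCm38.p6, and their sequences are shown because these genes were the markers used here. Each window runs from 250 bases before to 50 bases after a transcript start, 5′ to 3′ on the strand of the gene. Capitals mark the TATA motif, searched as TATAAA, the CAAT motif, searched as CCAAT, and the GC motif, searched as GGGCGG, each on both strands. In *Ogn* the TATA motif overlaps its own match on the opposite strand. They stand at chr6:4505368-4505667 (+) for *Col1a2*, chr11:55420031-55420330 (-) for *Sparc*, chr13:49607765-49608064 (+) for *Ogn* and chr4:143299515-143299814 (-) for *Pdpn*.
Col1a2: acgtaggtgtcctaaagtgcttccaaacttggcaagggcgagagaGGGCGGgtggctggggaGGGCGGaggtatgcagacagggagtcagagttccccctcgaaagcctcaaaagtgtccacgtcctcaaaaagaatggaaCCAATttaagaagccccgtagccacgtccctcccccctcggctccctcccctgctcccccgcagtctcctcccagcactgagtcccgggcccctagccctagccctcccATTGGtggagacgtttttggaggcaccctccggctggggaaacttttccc
Sparc: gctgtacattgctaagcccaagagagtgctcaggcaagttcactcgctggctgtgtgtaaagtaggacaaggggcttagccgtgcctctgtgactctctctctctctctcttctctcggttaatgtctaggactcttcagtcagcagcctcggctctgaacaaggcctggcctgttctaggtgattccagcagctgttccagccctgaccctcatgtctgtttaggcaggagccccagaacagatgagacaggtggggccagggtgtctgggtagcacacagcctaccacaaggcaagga
Ogn: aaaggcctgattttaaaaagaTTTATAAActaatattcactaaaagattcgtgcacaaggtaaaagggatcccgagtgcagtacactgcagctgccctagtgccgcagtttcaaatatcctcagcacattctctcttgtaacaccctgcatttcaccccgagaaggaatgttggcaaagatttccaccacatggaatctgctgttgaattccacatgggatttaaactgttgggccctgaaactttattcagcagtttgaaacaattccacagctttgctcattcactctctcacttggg
Pdpn: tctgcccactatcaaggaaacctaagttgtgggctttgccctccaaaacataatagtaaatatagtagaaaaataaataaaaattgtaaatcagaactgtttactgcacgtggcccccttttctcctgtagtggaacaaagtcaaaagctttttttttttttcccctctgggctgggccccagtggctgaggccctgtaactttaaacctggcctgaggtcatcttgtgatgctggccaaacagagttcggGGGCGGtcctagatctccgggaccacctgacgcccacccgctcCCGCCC

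No motif of the 3 was in all 4 windows. That of *Col1a2* held GGGCGG at 205 and 188 bases before the start and CCAAT at 109 bases before it, and a CCAAT of the opposite strand at the start itself. The *Ogn* window held TATAAA at 227 bases before the start, and the *Pdpn* window held GGGCGG on either strand after its start. None of the 3 motifs was found in the *Sparc* window. Of all 32851 windows 13.6% held TATAAA, 37.4% held CCAAT and 35.7% held GGGCGG. The ratio of observed to expected CG pairs was 0.47 for *Col1a2*, 0.17 for *Sparc*, 0.30 for *Ogn* and 0.40 for *Pdpn*. Among 1503 high genes with a promoter in the table the median ratio was 0.82 and the lower quartile 0.66, above all 4 windows. Over all windows of the table the median was 0.38, within the range of the 4. It was 0.77 for 7636 genes of the middle band.

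The genes of highest signal were those of translation, the actin skeleton and the collagen matrix. Of the 20 highest genes 11 encoded ribosomal proteins, led by *Rpl41* at 14.22 ± 0.06, and *Eef1a1*, the elongation factor that brings aminoacyl-tRNA to the ribosome, ranked 9. *Tmsb10*, which binds actin monomers, ranked 3, *Lgals1*, a secreted galectin, 4, and *Tpt1*, a growth-linked translation protein, 5. Without probe sets of the kinds that can bind several transcripts, *Tmsb10* was near the floor and *Rpl41* in the middle band. *Fth1*, the iron-storing ferritin heavy chain, ranked 8, and the cytoplasmic actins *Actb* and *Actg1* ranked 15 and 17. The matrix genes among these 20 were *Col1a2* and *Mgp*. Among the 100 highest genes were 34 ribosomal protein genes, 5 collagens, and 11 genes of the collagen, proteoglycan and osteoblast matrix lists combined. These probe sets read near the top of the scale of the array, where the order of single genes carries little.

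Genes of the osteoid and of mineral formation were spread over all the bands. Of 33 genes listed as osteoblast matrix and mineral genes 26 were measured. Of these 11 were high (42.3%, against 10% of all genes), 10 in the middle and 5 near the floor (19.2%, against 37.9%). The lists were drawn up with earlier results of these arrays known, so their counts describe and do not test. *Mgp*, which encodes an inhibitor of mineral deposition, read 14.01, 13.99 and 13.71 and ranked 12. *Postn*, a matrix protein of the periosteum, read 13.87, 13.91 and 13.44. *Cdh11*, the osteoblast cadherin, read 12.95, 13.11 and 12.38, and *Cdh2*, or N-cadherin, had a mean of 10.84 ± 0.39. The gap junction gene *Gja1*, which couples osteoblasts, had a mean of 12.19 ± 0.24. *Ank*, a transporter of pyrophosphate and so of a mineral inhibitor, had a mean of 10.70 ± 0.19.

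The middle band of this list held 10 genes of mixed roles. *Clec11a*, a stromal growth factor also called osteolectin, lay at the high limit with 10.21 ± 0.11 and was high on 1 of the 3 arrays when each array set its own limits. *Kazald1* had a mean of 10.01 ± 0.28 and *Cthrc1*, a secreted collagen repeat protein, of 9.27 ± 0.24. *Omd*, or osteoadherin, a proteoglycan of mineralised matrix, read 8.85, 9.22 and 8.37. The phosphate transporters *Slc20a1* and *Slc20a2* had means of 8.54 ± 0.22 and 7.88 ± 0.24. *Tnn*, a tenascin, was in the middle band, *Smpd3*, a sphingomyelinase needed for normal mineral, had a mean of 6.20 ± 0.33, and *Dmp1*, an acidic matrix protein of osteocytes, of 6.25 ± 0.24. *Dmp1* was near the floor when probe sets of the kinds that can bind several transcripts were left out. *Ifitm5*, a membrane protein of mature osteoblasts, was low in the band at 5.26 ± 0.33 and near the floor on 1 array.

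The 5 genes near the floor included *Ibsp*, *Mepe* and *Phex*. *Ibsp*, bone sialoprotein, which binds mineral, read 3.24, 3.53 and 2.99, in the lower 12.9% of genes, and its other probe set was lower still. *Mepe* and *Phex*, which regulate phosphate in the osteocyte, had means of 4.18 ± 0.24 and 4.46 ± 0.14. These stayed below the floor limit on every array. *Alpl*, tissue-nonspecific alkaline phosphatase, the enzyme most used to mark osteoblast maturation, sat at the limit and is not settled by its 1 probe set. It read 4.56 on array 1 and 5.29 and 5.20 on arrays 2 and 3, which were above the limits of those arrays, and the *Alpl* mean of 5.02 ± 0.40 was below the limit of 5.09. The mean moved into the middle band without array 1. *Bmp8a*, a BMP, read 4.39, 5.45 and 4.97, above the limit of array 2 alone, and its mean also moved into the middle band without array 1.

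**Figure D2:**
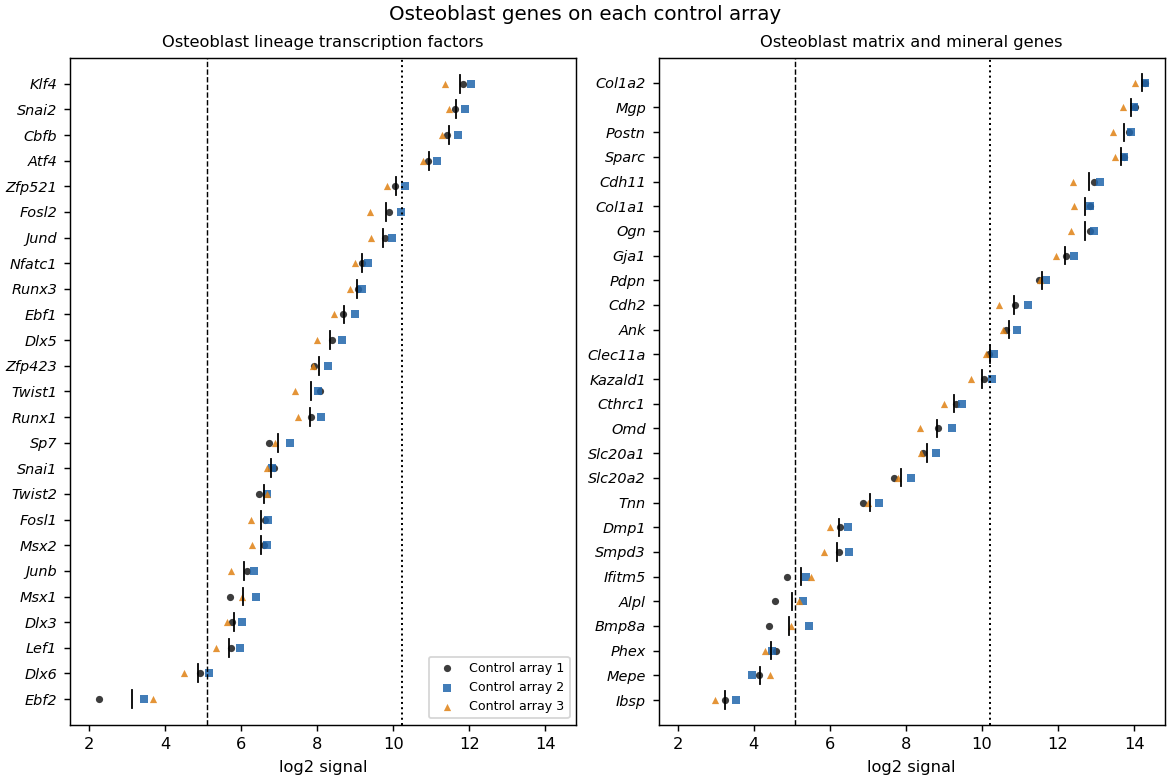
Log2 signal of each measured osteoblast transcription factor (left) and osteoblast matrix or mineral gene (right) on control arrays 1, 2 and 3, with the mean as a black bar, the floor limit of 5.09 dashed and the high limit of 10.22 dotted. Points of a gene mostly lie close together against the range between genes, array 3 lies lowest for most high genes, and 5 matrix genes from *Alpl* to *Ibsp* have means left of the dashed line.

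Transcription factors of the lineage lay mostly in the middle band. Of 28 listed 25 were measured. Of these 4 were high (16%, against 10% of all genes), 19 in the middle (76%, against 52.1%) and 2 near the floor (8%, against 37.9%). The band of 24 was the same on each of the 3 arrays. The high ones were *Klf4*, a zinc finger factor of growth arrest, at 11.83, 12.06 and 11.37, *Snai2*, or Slug, at 11.66 ± 0.20, *Cbfb*, the partner subunit of Runx proteins, at 11.45 ± 0.22, and *Atf4*, which drives amino acid uptake and late osteoblast genes, at 10.95 ± 0.19. None of them is particular to bone. Below them came *Zfp521*, a zinc finger factor that restrains osteoblast maturation, at 10.06 ± 0.24 and the AP-1 members *Fosl2* and *Jund* at 9.82 ± 0.40 and 9.72 ± 0.28. *Nfatc1*, a calcineurin target better known from osteoclasts, had a mean of 9.17 ± 0.17.

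The rest of the middle band held factors of several families. *Runx3* had a mean of 9.04 ± 0.17 and *Runx1* of 7.81 ± 0.31. *Ebf1* and *Zfp423*, factors that act in stromal and adipose precursors, had means of 8.70 ± 0.28 and 8.04 ± 0.22. *Twist1*, which holds back osteoblast maturation in the calvaria, read 8.06, 8.03 and 7.42, and *Twist2* had a mean of 6.61 ± 0.11. *Snai1* had a mean of 6.78 ± 0.10. *Msx2* and *Msx1*, homeobox factors of skull and tooth, had means of 6.53 ± 0.20 and 6.05 ± 0.34, and *Dlx3* one of 5.81 ± 0.19. The remaining AP-1 members *Fosl1* and *Junb* had means of 6.53 ± 0.23 and 6.08 ± 0.30. *Lef1*, a factor of the Wnt pathway, was low in the band at 5.67 ± 0.32. *Dlx6*, the neighbour of *Dlx5* in the genome, was near the floor at 4.91, 5.15 and 4.50, and so was *Ebf2* at 2.27, 3.45 and 3.69. The *Ebf2* values on arrays 2 and 3 lay apart from that on array 1 within the floor band.

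Factors that pattern head and limb were spread over the bands much as all genes were. Of 31 measured 3 were high (9.68%, against 10% of all genes), 16 in the middle and 12 near the floor (38.7%, against 37.9%). *Prrx1*, a homeobox factor of limb and craniofacial mesenchyme, read 12.71, 12.70 and 12.27 and ranked 155, and its relative *Prrx2* had a mean of 11.13 ± 0.17. *Nr2f1*, an orphan nuclear receptor, read 10.29, 10.63 and 9.97, and *Eya1*, a transcriptional coactivator, 10.22, 10.53 and 9.78, both across the high limit. *Foxc2* and *Tbx3* stood near the list median at 7.76 ± 0.18 and 7.15 ± 0.35. Lowest were *Otx2*, a forebrain factor, at 2.56 ± 0.21, *Zic1* at 2.32 ± 0.32 and *Meox2* at 2.13 ± 0.15. Further genes of the list were singled out after their values were seen. The homeobox gene *Six2* had a mean of 10.16 ± 0.13 and *Alx1*, a frontonasal factor, one of 9.40 ± 0.28.

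Hox genes, which set position along the trunk and limbs and are largely silent in the cells that form the skull vault, lay in the floor band or the lower part of the middle band. They were taken by symbol from the measured genes. Of these 33 none was high, 12 were in the middle and 21 near the floor (63.6%, against 37.9% of all genes). The highest were *Hoxa10* at 6.46, 6.97 and 6.70 and *Hoxa5* at 6.57, 6.91 and 6.25, both near the median gene, followed by *Hoxc9* at 6.38 ± 0.22 and *Hoxa7* at 6.23 ± 0.22. The median of the 33 was 4.35, where *Hoxd13* and *Hoxc8* stood at 4.41 ± 0.56 and 4.35 ± 0.39. The lowest were *Hoxd10*, *Hoxd1* and *Hoxb1*, between 2.18 and 2.42. The 21 genes near the floor were the same number without any single array.

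The highest collagens were fibrillar chains and chains of beaded filaments. Collagen genes were taken by symbol from the measured genes. Of these 42 genes 12 were high (28.6%, against 10% of all genes), 14 in the middle and 16 near the floor (38.1%, against 37.9%). *Col3a1*, the fibrillar collagen of soft connective tissue, read 13.82, 13.93 and 13.53. *Col5a2*, which seeds type I fibrils, had a mean of 13.33 ± 0.31, and *Col6a3*, a chain of beaded filaments around cells, of 13.22 ± 0.15. The genes nearest the list median were *Col18a1* at 8.15 ± 0.21 and *Col4a6*, a basement membrane chain, at 7.94 ± 0.30. *Col26a1*, *Col4a4* and *Col6a5* were lowest, at 3.19 ± 0.29, 2.96 ± 0.30 and 2.40 ± 0.18. In 41 of the 42 the band was the same on every array.

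Genes that fold, cut and crosslink collagen lay mostly in the high and middle bands. Of 32 listed collagen processing genes 28 were measured, 10 were high (35.7%, against 10% of all genes), 16 in the middle and 2 near the floor (7.14%, against 37.9%). *Pcolce*, the enhancer of procollagen C-proteinase, read 13.33, 13.45 and 12.75. *P4hb*, a subunit of prolyl hydroxylase, had a mean of 12.65 ± 0.24, *Ppib*, a prolyl isomerase, of 12.40 ± 0.17 and *Lox*, which crosslinks collagen, of 12.33 ± 0.04. *Lox* varied least of these, with values of 12.30, 12.37 and 12.30. *Loxl3* and *Plod2*, a lysyl hydroxylase, stood near the median at 9.42 ± 0.13 and 9.34 ± 0.10, and *P3h2* at 7.05 ± 0.14. The only members near the floor were *Colgalt2* at 4.15 ± 0.10 and *Adamts3*, a procollagen N-proteinase, at 2.97 ± 0.21. Secretory pathway genes in general were high in 24 of 30 measured (80%, against 10% of all genes), and none was near the floor (against 37.9%). *Hspa5*, the chaperone BiP of the endoplasmic reticulum, had a mean of 12.56 ± 0.25, *Spcs1*, of the signal peptidase, 12.39 ± 0.29 and *Canx*, or calnexin, 12.36 ± 0.30. *Kdelr1* and *Ssr1* stood at the list median with 11.40 ± 0.24 and 11.21 ± 0.18. The lowest were *Pdia4* at 9.48 ± 0.16 and the membrane-bound factors *Creb3l2* at 9.30 ± 0.19 and *Creb3l1*, which drives collagen secretion in osteoblasts, at 7.52 ± 0.17.

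Small leucine-rich proteoglycans, which control the width of collagen fibrils, fell into separate sets. All 15 were measured, 7 were high (46.7%, against 10% of all genes), 3 in the middle and 5 near the floor (33.3%, against 37.9%). *Bgn*, or biglycan, read 13.74, 13.73 and 13.42, *Dcn*, or decorin, 13.21, 13.26 and 12.78, and *Fmod*, or fibromodulin, 13.09, 13.20 and 12.87. *Lum*, or lumican, had a mean of 11.71 ± 0.11 and *Prelp* one of 10.45 ± 0.17. *Aspn*, or asporin, which binds TGF-β, had the widest spread of the high members, at 11.77, 12.06 and 11.02, with array 3 apart. *Podn* and *Optc* were lower in the middle band at 6.60 ± 0.06 and 5.44 ± 0.07. Near the floor were *Chad* (chondroadherin) at 3.93, 4.46 and 4.23, *Epyc* (epiphycan) at 3.89 ± 0.63, *Nyx* (nyctalopin) at 3.87 ± 0.33 and *Kera* (keratocan) at 2.96 ± 0.21. *Ecm2* at 4.76 ± 0.49 also lay there but read 5.33 on array 2.

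Among 59 measured glycoproteins of the matrix 12 were high (20.3%, against 10% of all genes), 31 in the middle and 16 near the floor (27.1%, against 37.9%). *Fn1*, fibronectin, read 13.58, 13.66 and 13.35. *Ccn3* had a mean of 12.09 ± 0.30, *Ecm1* of 11.88 ± 0.14 and *Ccn1*, a target of mechanical signals through YAP, of 11.09 ± 0.38. *Thbs3* and the laminin chain *Lamc1* stood near the median at 8.29 ± 0.31 and 8.24 ± 0.39. The lowest were *Matn1*, a cartilage matrilin, at 2.69 ± 0.10, *Efemp1* at 2.33 ± 0.12 and *Tnr*, a tenascin of the nervous system, at 2.18 ± 0.08. Enzymes that cut matrix stood beside their inhibitors. Of 33 measured 9 were high (27.3%, against 10% of all genes) and 8 near the floor (24.2%, against 37.9%). Among the high ones were the inhibitors *Timp2* at 13.04 ± 0.07 and *Timp3* at 12.08, 12.35 and 11.57, the gelatinase *Mmp2* at 12.49 ± 0.22 and *Serpinf1*, whose loss causes brittle bone, at 11.88 ± 0.17. *Adamts9* and *Adamts12* were at the list median with 7.53 ± 0.04 and 7.38 ± 0.28. *Mmp3*, *Mmp8* and *Mmp12*, known from inflamed tissue and leukocytes, were near the floor, with means from 2.43 to 3.52.

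**Figure D3:**
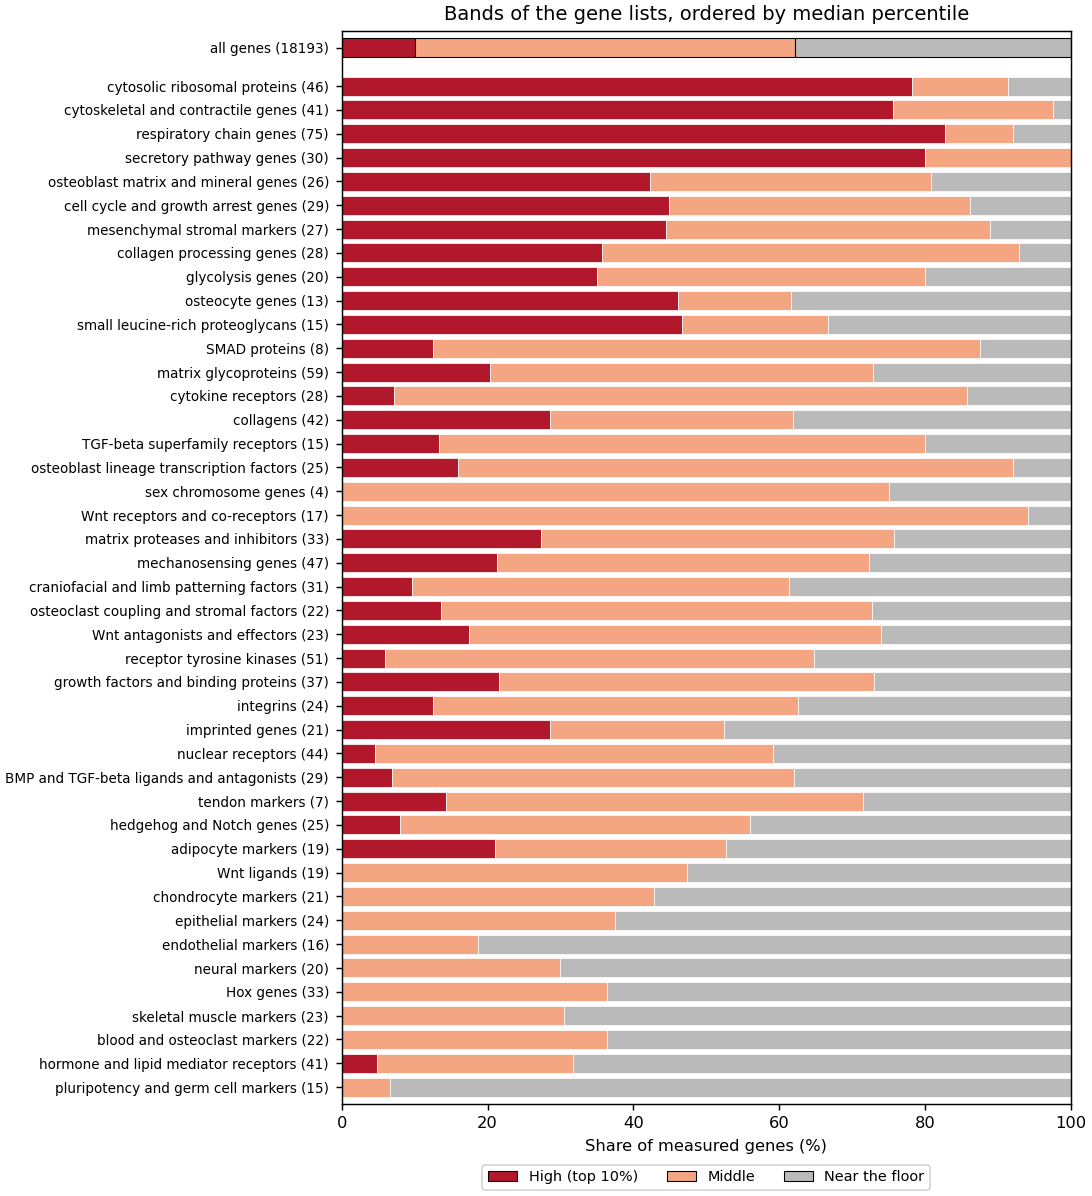
Share of measured genes in the high (red), middle (orange) and floor (grey) bands for 43 gene lists, ordered from top to bottom by the median percentile of their genes, with the number measured in brackets and all 18193 genes in the top bar. Lists of translation, cytoskeleton, respiration and secretion have most genes in red, and markers of pluripotent, blood, muscle and neural cells have most genes in grey.

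Among receptor tyrosine kinases those for PDGF and collagen stood highest. Of 51 measured receptor tyrosine kinases 3 were high (5.88%, against 10% of all genes), 30 in the middle and 18 near the floor (35.3%, against 37.9%). *Pdgfrb*, the receptor for PDGF-BB that marks mesenchymal and mural cells, read 12.13, 12.22 and 11.68. *Ddr1*, which is activated by collagen, had a mean of 11.49 ± 0.39, *Pdgfra* one of 10.75 ± 0.11 and *Ddr2*, the other collagen receptor of the family, one of 10.19 ± 0.22. *Epha4* and *Tyro3* stood near the list median. *Epha4* read 6.96, 7.18 and 5.76, with array 3 apart, and *Tyro3* had a mean of 6.58 ± 0.36. *Epha6*, *Epha3* and *Erbb4* were lowest, at 2.92 ± 0.61, 2.62 ± 0.12 and 2.15 ± 0.06. The FGF receptors were singled out after their values were seen. *Fgfr2* and *Fgfr1* had means of 9.91 ± 0.17 and 9.72 ± 0.11, and *Fgfr3*, which restrains cartilage growth, one of 7.11 ± 0.40.

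In the BMP and TGF-β pathway most receptors and SMADs lay above the floor. Of 15 receptors and co-receptors 2 were high (13.3%, against 10% of all genes), 10 in the middle and 3 near the floor (20%, against 37.9%). *Tgfbr2*, which binds TGF-β and starts its signal, read 12.03, 12.23 and 11.76, and *Bmpr2*, the type II receptor for BMPs, 10.70, 10.98 and 10.75. Their type I partners lay just under the high limit, with *Tgfbr1* at 10.02 ± 0.42, *Acvr1* at 10.02 ± 0.34 and *Bmpr1a* at 10.02 ± 0.22. These differed from each other by less than their spread. With the median over its probe sets *Tgfbr1* was near the floor. *Bmpr1b*, the other type I BMP receptor, was near the floor at 3.76, 3.98 and 3.75, as were *Acvrl1*, known from endothelium, at 3.72 ± 0.48 and *Acvr1c* at 4.35 ± 0.30. The co-receptor *Tgfbr3*, or betaglycan, had a mean of 9.63 ± 0.20 and *Eng*, or endoglin, one of 6.74 ± 0.15. *Acvr2a* and *Acvr1b*, activin receptors, had means of 8.01 ± 0.11 and 7.95 ± 0.17. *Bambi*, a decoy receptor, was low in the band at 5.70 ± 0.45. *Acvr2b* and *Amhr2*, at 5.17 ± 0.23 and 5.14 ± 0.41, lay at the floor limit and changed sides between arrays.

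All 8 SMADs were measured and their band was the same on each array. *Smad4*, the partner common to both branches, was high at 11.14, 11.29 and 10.73. The TGF-β branch had *Smad3* at 9.83 ± 0.20 and *Smad2* at 8.62 ± 0.06, the BMP branch *Smad1* at 9.43 ± 0.29 and *Smad5* at 8.87 ± 0.26, and the inhibitors *Smad6* and *Smad7* had means of 8.09 ± 0.25 and 7.60 ± 0.24. Only *Smad9*, the last BMP-branch member, was near the floor, at 3.87, 3.61 and 4.30. With the median over its probe sets *Smad3* was near the floor as well. Of 29 measured ligands and antagonists 2 were high (6.90%, against 10% of all genes), 16 in the middle and 11 near the floor (37.9%, the share of all genes). The highest were secreted modulators, *Fstl1* at 12.36 ± 0.29, *Twsg1* at 10.49 ± 0.18, *Chrdl1* at 9.85 ± 0.29 and the activin trap *Fst*, or follistatin, at 9.82 ± 0.23. *Bmp7* and *Inhbb* were near the list median at 5.54 ± 0.32 and 5.51 ± 0.41. *Bmp2*, a strong inducer of bone, was lowest at 2.22, 2.76 and 2.19, below *Bmp5* at 3.00 ± 0.20 and the BMP antagonist *Nog*, or noggin, at 3.27 ± 0.42. *Bmp4*, singled out after its value was seen, was the BMP of highest signal in the list at 8.32 ± 0.18.

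Wnt receptors were in the middle band nearly without exception. Of 18 listed 17 were measured, none was high and 16 were in the middle (94.1%, against 52.1% of all genes). *Fzd2* read 10.03, 10.30 and 9.78, *Ryk* had a mean of 9.71 ± 0.10, *Fzd1* of 9.64 ± 0.25 and the co-receptor *Lrp6* of 9.58 ± 0.21. *Lrp5*, the co-receptor whose mutations change bone mass, read 5.38, 5.52 and 4.83 and so lay low in the band, near the floor on array 3. *Fzd8* and *Ror2* stood near the list median at 7.57 ± 0.33 and 7.44 ± 0.51. *Fzd4* was at the limit with 5.22 ± 0.42, and *Fzd3* was the only member near the floor at 4.02 ± 0.23. The ligands were lower. Of 19 Wnt ligands none was high, 9 were in the middle and 10 near the floor (52.6%, against 37.9% of all genes). The highest were *Wnt10a* at 8.12, 8.39 and 8.23, *Wnt6* at 7.51 ± 0.09, *Wnt5a*, which acts without β-catenin, at 7.49, 7.69 and 6.90, and *Wnt5b* at 6.61 ± 0.31. *Wnt3a*, much used to stimulate osteoblasts, was near the floor at 4.67, 5.49 and 4.72, above it on array 2 alone, and *Wnt9b* had a mean of 4.77 ± 0.23. *Wnt2*, *Wnt8a* and *Wnt3* were lowest, between 2.66 and 3.40.

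Inside the cell *Ctnnb1*, β-catenin, read 13.34, 13.33 and 13.00 and stood in the top 1% of genes. Of the 23 measured effectors and antagonists 4 were high (17.4%, against 10% of all genes), 13 in the middle and 6 near the floor (26.1%, against 37.9%). The secreted modulators *Sfrp2* and *Dkk3* were high at 10.80 ± 0.12 and 10.70 ± 0.18, with *Tcf7l1*, a repressor of the pathway, at 10.38 ± 0.21. *Axin2*, a feedback target of β-catenin, had a mean of 6.92 ± 0.23 and *Dkk2* one of 6.27 ± 0.38. The antagonists *Dkk1* and *Dkk4* had means of 3.23 ± 0.20 and 3.08 ± 0.08, and *Frzb* one of 3.57 ± 0.64 with array 3 highest. *Sost*, sclerostin, the osteocyte antagonist of the pathway, read 3.21, 3.59 and 3.97, near the floor on every array.

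**Figure D4:**
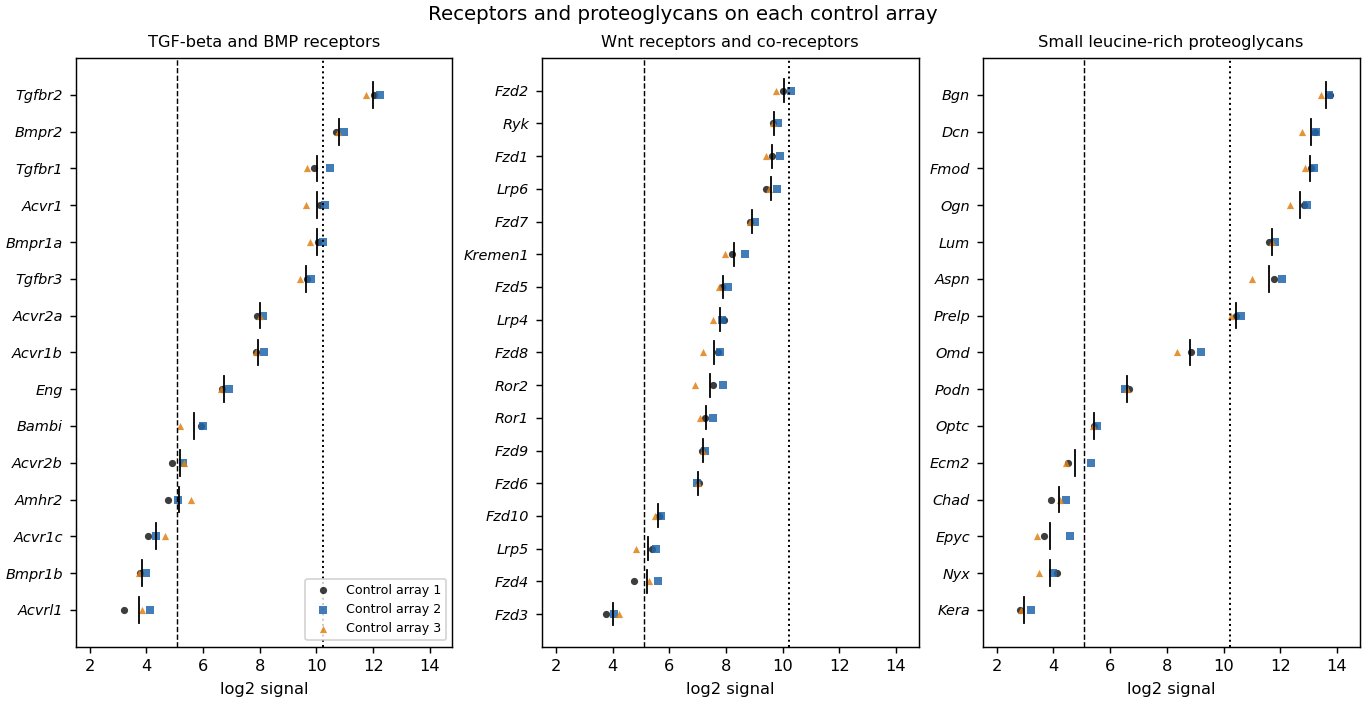
Log2 signal on control arrays 1, 2 and 3 of the TGF-β and BMP receptors (left), the Wnt receptors and co-receptors (centre) and the small leucine-rich proteoglycans (right), with the mean as a black bar, the floor limit of 5.09 dashed and the high limit of 10.22 dotted. The means of the Wnt receptors lie between the lines but for *Fzd3*, and the proteoglycans fall into 7 genes right of the dotted line and 5 left of the dashed line.

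The highest hedgehog and Notch genes were a transducer, a DNA-binding factor and receptors. Of 25 measured 2 were high (8%), 12 in the middle and 11 near the floor (44%), shares near those of all genes (10% and 37.9%). *Smo*, the signal transducer of hedgehog, had a mean of 10.59 ± 0.27 and *Rbpj*, the DNA-binding factor of Notch, of 10.40 ± 0.17. *Notch2* and *Notch1* followed at 9.74 ± 0.20 and 9.43 ± 0.26. The Notch ligand *Dll1* and the target *Hes5* stood near the median at 5.72 ± 0.13 and 5.53 ± 0.54, and *Dll3*, *Hhip*, a decoy for hedgehog that is also its target, and *Hey2*, a Notch target, were lowest at 3.21 ± 0.49, 3.16 ± 0.22 and 2.19 ± 0.11.

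Apart from the smell receptors that set the floor, receptors for hormones and lipid mediators were the receptor class nearest the floor. Of 49 listed 41 were measured. Of these 2 were high (4.88%, against 10% of all genes), 11 in the middle and 28 near the floor (68.3%, against 37.9%). *Ackr3*, a scavenger of the chemokine Cxcl12, read 11.20, 11.40 and 10.76, and *F2r*, the thrombin receptor, 11.28, 11.32 and 10.66. *Lgr4*, a receptor for R-spondins, had a mean of 9.91 ± 0.26. *S1pr1*, for sphingosine phosphate, read 9.49, 9.72 and 8.42, with array 3 apart, whereas *S1pr3* had a mean of 4.01 ± 0.59. *Pth2r*, *Agtr2* and *Lpar3* were lowest, between 2.25 and 2.39, and *Tshr* stood at 3.92 ± 0.41. *Pth1r*, the parathyroid hormone receptor of bone, was singled out after its value was seen and read 7.09, 6.98 and 6.84, in the middle band on each array.

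Of 44 measured nuclear receptors 2 were high (4.55%, against 10% of all genes), 24 in the middle and 18 near the floor (40.9%, against 37.9%). Apart from *Nr2f1* the high member was *Nr3c1*, the glucocorticoid receptor, at 10.33, 10.48 and 9.95, whose value on array 3 was under that array's high limit. *Nr2c2* and *Nr1d2*, a clock repressor, followed at 9.87 ± 0.18 and 9.79 ± 0.36, and *Nr3c2*, the mineralocorticoid receptor, and *Esrrb* stood near the median at 5.67 ± 0.40 and 5.58 ± 0.12. *Hnf4g*, the progesterone receptor *Pgr* and *Nr0b1* were lowest, from 2.76 to 3.29. Receptors of known weight in bone were singled out after their values were seen. *Vdr*, the vitamin D receptor, read 8.19, 8.45 and 7.86, and the estrogen receptor *Esr1* 8.03, 8.21 and 7.97, while *Esr2* was near the floor at 4.79 ± 0.26. *Pparg*, the factor of fat cells, was near the floor at 3.67 ± 0.31.

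Cytokine receptors were in the middle band in 22 of 28 cases (78.6%, against 52.1% of all genes). Of the others 2 were high (7.14%, against 10%) and 4 near the floor (14.3%, against 37.9%). *Ghr*, the growth hormone receptor, had a mean of 10.76 ± 0.13, *Tnfrsf1a*, the main TNF receptor, 10.55 ± 0.11, *Tnfrsf12a* 10.13 ± 0.14 and *Lifr* 10.06 ± 0.34. *Il1r1* and the endotoxin receptor *Tlr4* stood near the median at 8.17 ± 0.06 and 8.10 ± 0.41. *Tnfrsf11a*, or RANK, the receptor of osteoclast precursors, was near the floor at 4.92, 4.76 and 4.79, with *Lepr* at 4.76 ± 0.42 and *Il7r* at 3.43 ± 0.70. Factors by which osteoblasts direct osteoclasts and blood cells formed another list. Of 22 measured 13 were in the middle (59.1%, against 52.1% of all genes), 6 near the floor (27.3%, against 37.9%) and 3 high (13.6%, against 10%). The high ones were the chemokine *Cxcl12* at 11.04 ± 0.09, the adhesion molecule *Vcam1* at 10.96 ± 0.29 and *Sema3a*, which restrains osteoclasts, at 10.58 ± 0.15. *Csf1*, a survival factor of osteoclast precursors, was at the high limit with 10.20 ± 0.09, and *Cxcl1* and *Ccl2* were near the list median, *Cxcl1* at 7.10 ± 0.33 and *Ccl2* at 7.18, 7.15 and 6.68. *Tnfsf11*, or RANKL, the osteoclast inducer, was near the floor at 3.16, 3.86 and 3.66, and its decoy *Tnfrsf11b*, or osteoprotegerin, read 9.04, 9.29 and 8.19. The other low members were *Cxcl5* at 3.44 ± 0.43 and *Icam1* at 3.25 ± 0.21.

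Of 37 measured growth factors and binding proteins 8 were high (21.6%, against 10% of all genes), 19 in the middle and 10 near the floor (27.0%, against 37.9%). *Ptn*, or pleiotrophin, a heparin-binding factor of bone matrix, read 13.07, 13.27 and 12.42. *Igfbp4* and *Igfbp7*, binding proteins for insulin-like growth factors, had means of 12.05 ± 0.15 and 11.68 ± 0.32, and *Fgf7*, an FGF of mesenchyme that acts on epithelium, one of 11.48 ± 0.15. *Hbegf* and *Nrg1*, ligands of the EGF family, stood near the median at 6.44 ± 0.17 and 6.40 ± 0.22. *Igfbp1*, *Igfbp3* and *Fgf2* were lowest, at 2.94 ± 0.37, 2.85 ± 0.47 and 2.59 ± 0.32. Since *Fgf2* had only 1 probe set with a single gene name, its place rests on that probe set.

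Genes by which cells sense load were led by those of caveolae, gap junctions, adhesion sites and the nuclear lamina. Of 47 measured 10 were high (21.3%, against 10% of all genes), 24 in the middle and 13 near the floor (27.7%, against 37.9%). *Cav1*, the main protein of caveolae, read 12.74, 12.84 and 12.22, *Vcl*, vinculin of focal adhesions, had a mean of 11.93 ± 0.18 and *Lmna*, the lamin A gene, one of 11.46 ± 0.15. The pannexin channel gene *Panx1* and the factor *Tead3* stood near the median at 7.43 ± 0.26 and 7.42 ± 0.17. *Panx2*, *Trpv1* and *Trpc6* were lowest, at 3.09 ± 0.79, 2.89 ± 0.33 and 2.16 ± 0.25. Further members were singled out after their values were seen. The stretch channel *Piezo1* had a mean of 9.49 ± 0.17 and *Trpv4* one of 7.36 ± 0.21, and the load-responsive coactivators *Yap1* and *Wwtr1* had means of 10.35 ± 0.23 and 10.43 ± 0.22. Of 24 integrins 3 were high, 12 in the middle and 9 near the floor. The shares were 12.5% high and 37.5% near the floor, close to those of all genes (10% and 37.9%). *Itgav* had a mean of 11.94 ± 0.23, *Itgb5*, its partner in a receptor for vitronectin, 11.10 ± 0.13, and *Itgb1*, the most widely shared β chain, 10.30 ± 0.35. With the median over its probe sets *Itgav* was near the floor. *Itga6* had a mean of 10.00 ± 0.20, *Itgb4* and *Itgb7* stood near the median with 6.45 ± 0.33 and 6.21 ± 0.11, and *Itgb2* and *Itgam*, chains of leukocytes, were near the floor with *Itgb6*, between 2.83 and 3.32.

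Cytoskeletal genes were the list of highest median outside the ribosome, with 31 of 41 measured genes high (75.6%, against 10% of all genes). *Myh9*, non-muscle myosin, and *Pfn1*, profilin, stood at the list median with 12.32 ± 0.24 and 12.31 ± 0.08. Contractile isoforms of smooth muscle such as *Actg2*, *Tagln* and *Myl9* were high, at 12.28 ± 0.24, 12.06 ± 0.14 and 12.01 ± 0.15. The lowest of the list were *Actc1*, cardiac actin, at 6.37 ± 0.24, *Des*, desmin, at 5.86 ± 0.03 and *Myh11*, smooth muscle myosin, near the floor at 4.11 ± 0.66. Of 27 mesenchymal stromal markers 12 were high (44.4%, against 10% of all genes), 12 in the middle and 3 near the floor (11.1%, against 37.9%). *Acta2*, smooth muscle actin of contractile fibroblasts and mural cells, read 13.70, 13.86 and 13.55, and *Cd9*, a tetraspanin, had a mean of 12.43 ± 0.07. *Acta2* was near the floor when probe sets of the kinds that can bind several transcripts were left out. *Cd248* and *Cspg4*, which mark stromal and mural cells, had means of 9.44 ± 0.10 and 8.95 ± 0.16. *Lepr*, a marker of marrow stroma, *Fap* at 3.67 ± 0.46 and *Cd24a* at 2.89 ± 0.15 were near the floor. Osteocyte genes were split by kind. Of 13 measured 6 were high (46.2%, against 10% of all genes), 2 in the middle and 5 near the floor (38.5%, against 37.9%). The high ones are also used by other cells, with *Dstn* (destrin) at 12.48 ± 0.31, *Cd44*, the hyaluronan receptor, at 11.99 ± 0.32, *Capg* at 10.69 ± 0.37 and *Irx5* at the limit with 10.23 ± 0.22. *Fgf23*, the phosphate hormone of osteocytes, was near the floor at 3.17, 4.04 and 4.46. *Fgf9* had the widest spread of the list, at 3.25, 5.57 and 5.28, and its place is not settled.

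Markers of other cell types lay mostly near the floor. Of 167 measured markers in 9 lists 109 were near the floor (65.3%, against 37.9% of all genes), 53 in the middle and 5 high (2.99%, against 10%). In a bulk culture fewer cells of a type and less RNA per cell cannot be told apart. Defining genes of blood and endothelium, singled out after their values were seen, were at the floor, with *Ptprc*, or CD45, at 2.86 ± 0.19, *Cdh5*, VE-cadherin, at 3.35 ± 0.13 and *Pecam1* at 3.28 ± 0.27. Of 22 blood and osteoclast markers 14 were near the floor (63.6%, against 37.9% of all genes) and none was high. *Cd14* was highest at 7.17 ± 0.20 before *Laptm5* at 6.57 ± 0.44, *Lyz2* at 6.46 ± 0.32 and *Csf1r* at 5.84 ± 0.15, and *Calcr* lowest at 2.45 ± 0.30. Of 16 endothelial markers 13 were near the floor (81.25%, against 37.9%). *Flt1*, a VEGF receptor, stood out at 8.12 ± 0.17 with *Egfl7* at 6.50 ± 0.18 and *Kdr* at 5.60 ± 0.22. Of 15 pluripotency and germ cell markers 14 were near the floor (93.3%, against 37.9%), among them *Sox2* at 2.02 ± 0.11, *Pou5f1* at 3.83 ± 0.26 and *Nanog* at 3.74 ± 0.55. *Utf1* lay just above the limit with 5.17 ± 0.46. The others were *Ddx4*, *Zfp42*, *Mael*, *Tdgf1*, *Prdm14*, *Sycp3*, *Lin28a*, *Dazl*, *Dppa4*, *Dppa3* and *Dppa5a*, with means from 2.07 to 4.49. Of 20 neural markers 14 were near the floor (70%, against 37.9%), and *Map2* was highest at 7.39 ± 0.53.

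Some markers of other lineages were not near the floor. Of 21 chondrocyte markers 9 were in the middle (42.9%, against 52.1% of all genes) and 12 near the floor (57.1%, against 37.9%). *Col2a1*, the main cartilage collagen, read 10.09, 10.21 and 9.88 at percentile 88.7, *Col11a1* 9.75, 10.00 and 9.35, *Sox9*, the master factor of cartilage, 9.44, 9.63 and 9.01, and *Cnmd*, or chondromodulin, had a mean of 8.74 ± 0.23. Other cartilage matrix genes lay on both sides of the floor limit. *Hapln1*, a link protein, had a mean of 7.25 ± 0.27, and *Col9a1* and *Col9a3* had means of 5.42 ± 0.31 and 5.25 ± 0.22. Aggrecan was near the floor, as were *Col9a2* at 4.26 ± 0.39, *Col10a1* at 3.77 ± 0.07 and *Matn1* at 2.69 ± 0.10. Of 19 adipocyte markers 4 were high (21.1%, against 10% of all genes) and 9 near the floor (47.4%, against 37.9%). The high ones were *Fabp5* at 12.25 ± 0.33, the desaturase *Scd1* at 11.10 ± 0.04, *Cebpb* at 10.71 ± 0.16 and *Plin2*, which coats lipid droplets, at 10.60 ± 0.17, all of which other cells use as well. *Adipoq*, adiponectin, *Lep*, leptin, and *Cd36* were near the floor, between 2.75 and 3.07. Of 7 tendon markers 1 was high (14.3%, against 10% of all genes) and 2 near the floor (28.6%, against 37.9%). The high one was *Egr1*, an immediate early gene of many cells, at 11.30 ± 0.33. *Egr2* had a mean of 9.80 ± 0.23 and *Mkx*, or Mohawk, one of 7.34 ± 0.32. *Scx*, scleraxis, and *Tnmd*, tenomodulin, were low at 5.54 ± 0.16 and 5.18 ± 0.37, and *Thbs4* had a mean of 4.11 ± 0.22.

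Epithelial and muscle markers had single members well above the floor. Of 24 epithelial markers 15 were near the floor (62.5%, against 37.9% of all genes) and none was high. *Krt14*, a basal keratin, read 9.72, 9.91 and 9.65 and *Trp63*, the p63 factor of basal epithelium, 7.57, 7.92 and 7.30. *Pkp1*, a desmosome protein, had a mean of 7.80 ± 0.18 and *Epcam* one of 7.74 ± 0.17. Probe sets of these genes differed. *Krt14* had 2 probe sets at 9.76 and 8.93 and another at 3.65. Those of *Trp63* had means of 7.60, 5.74, 4.31 and 3.70, of which 4.31 and 3.70 lay under the floor limit. The *Epcam* value, like the highest of *Krt14*, came from a probe set of a kind that can cross-hybridise, and the other *Epcam* probe set had a mean of 4.17. *Krt5*, the keratin that pairs with Krt14, was low in the middle band at 5.43 ± 0.44, and the adhesion genes *Perp* and *Cdh1*, E-cadherin, had means of 7.09 ± 0.39 and 5.60 ± 0.72. The lowest of the list were *Krt18* and *Krt7*, keratins of simple epithelium, and *Dsp*, desmoplakin, from 2.62 to 3.01. Of 23 skeletal muscle markers 16 were near the floor (69.6%, against 37.9%) and none was high. *Tnnc1*, a troponin of slow muscle and heart, had a mean of 8.73 ± 0.21 and *Pax3*, a factor of muscle and neural crest precursors, read 8.63, 8.78 and 8.19 with its 3 probe sets between 6.70 and 8.53. *Acta1* read 7.10, 6.64 and 6.08. The myogenic factor *Myf5* was among the lowest of all genes at 1.96 ± 0.07, and the myosins *Myh2* and *Myh8* had means of 2.87 ± 0.41 and 2.43 ± 0.25. Whether these signals come from the cells described or from a few others was not tested.

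Genes of respiration and translation were mostly high. Of 75 measured respiratory chain genes 62 were high (82.7%, against 10% of all genes), led by *Cox6a1* at 13.57 ± 0.18, *Uqcrb* at 13.39 ± 0.09, *Cox5b* at 13.01 ± 0.10 and *Atp5g3* at 12.94 ± 0.28. Near the floor were 6 (8%, against 37.9%), among them *Cox7a1*, of muscle, at 3.61 ± 0.24 and *Cox7b2* at 2.45 ± 0.28, beside *Ndufb4* at 3.22 ± 0.24, which had 1 probe set. Of 46 ribosomal protein genes 36 were high (78.3%, against 10%) and 4 near the floor (8.70%, against 37.9%). Those near the floor were *Rps16* and the restricted copies *Rpl3l* at 3.25 ± 0.35, *Rpl39l* at 3.22 ± 0.20 and *Rps4l* with a mean of 3.50. Copies of ribosomal protein genes are near-identical, so these signals can be shared between them. Of 20 glycolysis genes 7 were high (35%, against 10%) and 4 near the floor (20%, against 37.9%). Highest were *Pgk1* at 12.02 ± 0.13, *Tpi1* at 11.91 ± 0.14, *Pgam1* at 11.64 ± 0.21 and *Ldha* at 11.59 ± 0.22. *Slc2a1*, the general glucose transporter, had a mean of 9.34 ± 0.31, and *Slc2a3*, *Aldoc* and *Slc16a3* were near the floor, from 3.55 to 4.40.

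Of 29 measured cell cycle genes 13 were high (44.8%, against 10% of all genes), 12 in the middle and 4 near the floor (13.8%, against 37.9%). *Pcna*, of the replication fork, read 12.44, 12.54 and 12.38, *Top2a*, which untangles chromosomes for division, had a mean of 11.55 ± 0.28, and the cyclins *Ccnd2* and *Ccnd1* had means of 11.52 ± 0.22 and 11.48 ± 0.25. *Cdk6* and *Rbl1* stood at 9.79 ± 0.29 and 9.58 ± 0.24. Inhibitors of cyclin-dependent kinases lay at both ends. *Cdkn2c*, *Cdkn1a* and *Cdkn1b* were high at 11.30 ± 0.24, 10.93 ± 0.20 and 10.90 ± 0.30, *Cdkn2d* was in the middle band at 9.23 ± 0.30, and *Cdkn2a*, *Cdkn1c* and *Cdkn2b* were near the floor. *Cdkn2a*, which stops cells that have divided long in culture and is often lost from lasting lines, read 2.38, 3.08 and 2.96, and *Cdkn1c* and *Cdkn2b* had means of 3.36 ± 0.21 and 4.11 ± 0.13. Genes of the Y chromosome lay above the floor. *Eif2s3y*, *Kdm5d* and *Uty* had means of 8.73 ± 0.31, 8.26 ± 0.36 and 7.12 ± 0.49, and *Xist*, which silences an X chromosome in females, was near the floor at 4.05, 4.33 and 5.15, each under the limit of its array.

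Imprinted genes, expressed from 1 parental copy, lay at both ends. Of 21 measured 6 were high (28.6%, against 10% of all genes), 5 in the middle and 10 near the floor (47.6%, against 37.9%). Beside *Dcn* the high ones were led by *Gnas*, the stimulatory G protein, at 13.04 ± 0.29, the growth inhibitor *Grb10* at 11.51 ± 0.23 and *Mest* at 10.92 ± 0.27. *Gnas* was near the floor with the median over its probe sets, and also without probe sets of the kinds that can bind several transcripts. *Igf2*, the fetal growth factor, read 7.10, 7.36 and 6.81, and its second probe set had a mean of 2.77. *Meg3* had a mean of 5.91 ± 0.15. *Peg10* and *Zim1* were near the floor at 3.05 ± 0.41 and 2.92 ± 0.13, and *Nnat* was the lowest of the list.

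Of the 10 genes of widest SD among the 11293 above the floor limit, 9 had their lowest value on array 3, as did 77.6% of all these genes. *Malat1*, a long nuclear RNA, read 13.04 and 13.12 on arrays 1 and 2 and 10.67 on array 3. *Nedd4*, a ubiquitin ligase, read 12.39, 12.40 and 10.74, though its other probe sets, with means of 11.62 and 11.06, differed less. The large cadherin *Fat4* read 8.38, 8.84 and 6.90. *Rufy2*, *Rbm12b2*, *Usp53*, *Ninl*, *Zfp141* and *Rbm12b1* lay between 5.67 and 7.16 on arrays 1 and 2 and between 3.77 and 5.49 on array 3. The exception was *Lyrm9*, at 4.34 on array 1 and 6.13 and 6.29 on the others. All 10 remained among the 200 widest after the arrays were brought to the same distribution.

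**Figure D5:**
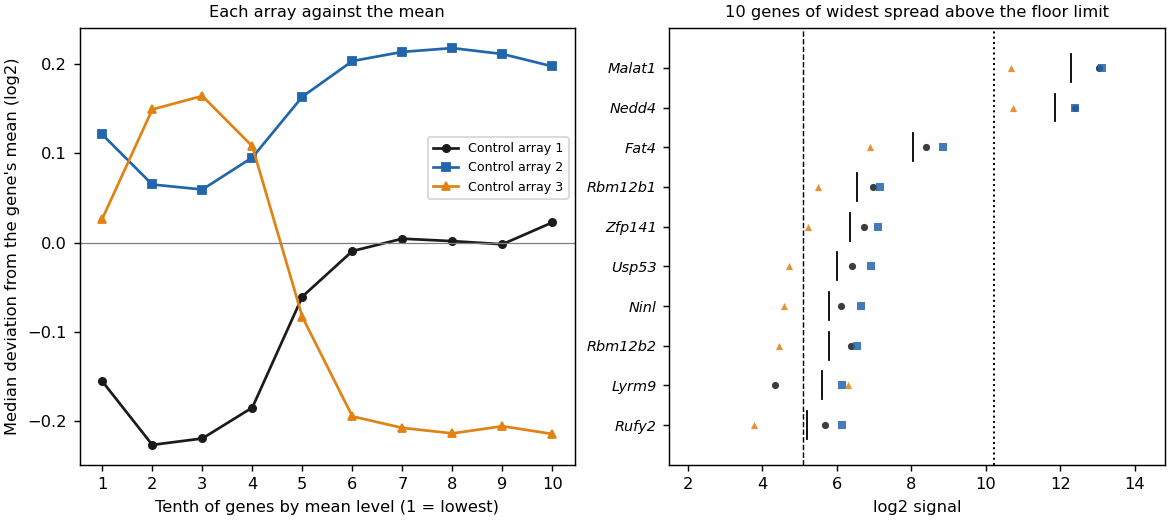
Left, the median deviation of each control array from the gene means (log2) in 10 equal bins of the 18193 genes from lowest to highest level. Right, log2 signal on each array of the 10 genes of widest SD above the floor limit, with the mean as a black bar and the floor and high limits dashed and dotted. Array 3 lies below the means in bins 5 to 10, with a deviation of -0.21 in bin 10, and above them in bins 1 to 4, and it is the lowest point for 9 of the 10 genes.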

How the data were processed

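Transcript levels were taken from the 3 mock-treated control arrays. The log2 signals were deposited as the authors had made them with RMA (robust multi-array average) from cRNA of 500 ng of total RNA per array. Settings and version of RMA are not given in the sources used here. Probe sets were named from the platform table, with older symbols replaced through their gene numbers. Of them 34945 had 1 symbol and were used, 932 had several and 9160 none. Mean and SD over 3 arrays, ranks and bands were computed in Python 3.11.15 with pandas 2.3.3 and numpy 2.4.6. The procedure was also run on simulated data, with some genes near the floor raised far above the limit. That these genes left the floor band was fixed in advance, so it checks the code and not calls near a limit. No test was run, because the 3 arrays form 1 group. Their number limits the precision. The members and the 45 gene lists, 2 of them floor references, were chosen with earlier results of these data known. The genes named were taken from the markers, the 20 highest genes, up to 4 highest, 2 central and up to 3 lowest genes of each list, whole lists of up to 15 genes and both osteoblast lists, and the 10 genes of widest SD. Other genes were chosen after their values were seen. Rescaling, other probe set rules, other limits and leaving out each array were tried.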

Additional observations from a re-analysis of the deposited data

How the results depend on the processing

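Each count was repeated under 13 other settings: 2 rescalings of the arrays, 2 rules for the probe set, the median over arrays, each array left out, 3 other floor limits and 2 other high limits. The number of genes near the floor, 6900, ran from 6791 to 6956 with 1 array left out, was 5585 and 7901 with the limit at the 90th and 99th percentile, and 8238 with the limit of 5.88 from tissue-restricted genes. Set on each array by itself, a limit chosen after seeing the data gave 6488 to 6994. All 7 bone markers stayed above the floor in these settings. Markers of other cell types near the floor, 109, ran from 87 to 131. The 5 osteoblast matrix genes near the floor were 3 to 5 with 1 array left out and 3 with the limit at the 90th percentile. Without control array 1 *Alpl* and *Bmp8a* were the genes that left. With the median over the probe sets of a gene 15546 genes (85.5%) kept their band, and with the arrays brought to the same distribution 18147 (99.7%). Of 1260 genes in the lists 822 kept theirs in all settings that gave them a value. Other named genes that were near the floor with the median over probe sets included *Slc20a1*, *Tbx3*, *Lef1*, *Map2*, *Kdm5d* and *Uty*, all in the middle band otherwise described. Promoters were in the table for only 77% of genes near the floor, so a comparison of promoters with that band is void, as it is for the lowest 3 of 5 equal bins of genes. No paired analysis was possible because only 1 group was described.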

Other observations

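The 200 genes of widest SD above the floor limit held 12 genes named as Zfp zinc finger factors (6%, against 2.45% of the 11293 genes above the limit), and all 12 were lowest on array 3. Of these 200 genes 165 (82.5%) were lowest on array 3, where 77.6% of all genes above the limit were. After the 3 arrays were brought to the same distribution 108 of the 200 were still among the widest 200, and 91 of the new 200 were lowest on array 3. This set was formed after the values were seen, and its source was not tested.

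All 7 probe sets of *Malat1* were lowest on array 3. The brightest 3, with means of 12.28, 11.75 and 10.15, read 10.67, 10.34 and 8.49 there, against 13.04, 12.40 and 10.94 on array 1.

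Genes with more probe sets were more often called high, and the reason was not tested. Of 9183 genes with 1 probe set 53.8% were near the floor and 5.04% were high, and of 4315 genes with 3 or more 14.3% were near the floor and 19.1% were high. In 504 of 1357 high genes with several probe sets the lowest one was near the floor.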
